A study of Mus musculus with 40 samples.

Results

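The 32 genes described here encode the enzymes and regulators of cholesterol and fatty acid synthesis, chosen by gene symbol alone from a count table of 24062 genes. All 32 were rows of the table and all 32 passed the filter on low counts, which left 16656 genes. They were measured by RNA-Seq in primary mouse embryonic fibroblasts (MEFs), the connective tissue cells of the embryo grown in a dish, taken at 13.5 days post coitum and used at passage 3. The embryos were wild-type (WT), heterozygous (Het) or knockout (KO) for Sall2, a zinc finger transcription factor. All came from a line of mixed C57BL/6J-129P2OlaHsd strain, in which sequence linked to the targeted gene can differ between genotypes, and the KO allele was a germline one carried by every cell. All cultures grew in medium with 10% heat-inactivated fetal bovine serum, a source of outside lipids. Each culture was left untreated (control) or given 1 µM doxorubicin, a DNA-damaging drug that poisons topoisomerase II, for 16 h. There was 1 WT embryo, 1 Het embryo and 3 KO embryos in each treatment. The KO libraries of embryos 2 and 3 with doxorubicin did not differ in any of the 24062 genes. They enter once, as KO embryo 2, since their Xist and Y-linked counts go with the control of embryo 2, so that 9 libraries remain. By these counts the WT, Het and KO embryo 2 cultures were female, and those of KO embryos 1 and 3 male. Xist and Y-linked counts were 5913 and 1 in the WT control. They were 3 and 3806 in the KO embryo 1 control, and 31 and 6397 in that of KO embryo 3.

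Cholesterol is built from acetyl-CoA through mevalonate, squalene and lanosterol, and fatty acids from acetyl-CoA through malonyl-CoA. Most of the enzymes are switched on by the sterol regulatory element-binding proteins, which Srebf1 and Srebf2 encode. When sterols are low, Scap escorts these factors from the endoplasmic reticulum to the Golgi, where proteases release the active part. When sterols are high, the Insig proteins hold Scap back and transcription of the targets falls. Fibroblasts make their own cholesterol, and Insig1 is itself a target of the pathway while Insig2 is less dependent on it.

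The stretches before the start sites of 4 members are shown because these genes took different courses in the libraries: Hmgcs1 and Fasn are classical targets, and Insig1 and Insig2 encode the paired brakes. Sequences are RefSeq promoters of GRCm38.p6, which matched 25 of the 32 genes with 33 start sites, read 5′ to 3′ and ending at the most upstream start, without bases that lie inside the GENCODE gene. Capitals mark matches on either strand to CACNCCAC, the core of the sterol regulatory element. They also mark CCAAT, the box bound by NF-Y, and GGGCGG, the GC box bound by Sp1. The E-box CACGTG is marked too.
Hmgcs1 (chr13:119690101-119690350, plus strand): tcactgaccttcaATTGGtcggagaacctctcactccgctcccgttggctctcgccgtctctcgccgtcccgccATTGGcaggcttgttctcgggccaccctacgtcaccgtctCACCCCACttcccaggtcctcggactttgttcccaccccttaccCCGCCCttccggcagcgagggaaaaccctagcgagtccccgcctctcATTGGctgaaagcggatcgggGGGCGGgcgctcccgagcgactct
Fasn (chr11:120824548-120824797, minus strand): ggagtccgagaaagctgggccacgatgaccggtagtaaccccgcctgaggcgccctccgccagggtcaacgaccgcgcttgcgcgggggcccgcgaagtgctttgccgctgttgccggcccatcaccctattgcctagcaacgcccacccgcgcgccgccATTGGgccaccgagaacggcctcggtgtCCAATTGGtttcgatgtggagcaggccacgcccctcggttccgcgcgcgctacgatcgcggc
Insig1 (chr5:28071162-28071362, plus strand): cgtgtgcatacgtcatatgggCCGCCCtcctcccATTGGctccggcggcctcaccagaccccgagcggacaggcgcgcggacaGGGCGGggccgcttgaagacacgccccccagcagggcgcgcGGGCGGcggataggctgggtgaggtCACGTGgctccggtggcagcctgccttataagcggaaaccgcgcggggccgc
Insig2 (chr1:121332590-121332839, minus strand): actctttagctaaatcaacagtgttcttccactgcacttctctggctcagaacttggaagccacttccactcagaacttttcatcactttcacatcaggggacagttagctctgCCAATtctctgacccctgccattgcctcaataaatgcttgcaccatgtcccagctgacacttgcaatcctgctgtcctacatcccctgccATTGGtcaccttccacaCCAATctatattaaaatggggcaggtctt
The printed Hmgcs1 stretch holds 1 match to CACNCCAC, 3 to CCAAT and 2 to GGGCGG. The Insig1 stretch holds 1 CCAAT, 3 GGGCGG and 1 CACGTG match, whereas the Fasn and Insig2 stretches hold 3 CCAAT matches each and no other capitals. In Fasn, 2 of the CCAAT matches overlap on opposite strands. Over the 250 bases before each of the 33 member starts, CCAAT occurred before 20 (60.6%) and GGGCGG before 24 (72.7%), against 33.8% and 32.7% of 32851 mouse start sites. CACGTG occurred before 5 member starts (15.2%, against 6.02%). The 8 letters CACNCCAC occurred before 3 member starts, those of Acat2, Hmgcs1 and Insig1 (9.09%, against 5.29%), and the 9 letters TCACNCCAC, which contain them, before that of Hmgcs1 (1.05% of all starts). The CACNCCAC match of Insig1 lies outside the printed stretch. Insig2 has 3 RefSeq starts, of which only the most upstream is printed, and GGGCGG occurred before another of them. The motifs were chosen after the expression values were seen, a match is not a binding site, and no expression value was tested against them.

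Library totals lay between 15560728 and 24122414 counts, and the TMM factors between 0.821 and 1.33. Sall2 was at 37.7 CPM (counts scaled by library size and TMM factor) in the WT control, 24 in the Het control and 21.1 ± 2.8 (SD, n = 3) in the KO controls, and with doxorubicin at 9.35, 7.95 and 3.97 ± 0.36 (SD, n = 2). Counts over the whole gene cannot show which part of the transcript is missing. The Het and KO embryo 3 control libraries stood apart from the other 3 controls. Ribosomal Rn45s took 3.16% of the counts in the KO embryo 2 control and 2.56% in treated Het, and 0.0387% to 0.772% elsewhere. A list of 10 interferon-stimulated genes summed to 2170 and 2370 CPM in the Het and KO embryo 3 controls, against 45.7 to 63.3 CPM in the WT, KO embryo 1 and KO embryo 2 controls. With doxorubicin the sum was 1440 CPM in Het and 331 to 418 CPM in the others. The 7 fibroblast markers, led by Col1a1, summed to 11300 and 10000 CPM in the Het and KO embryo 3 controls against 42700 to 50700 CPM in the other controls. With doxorubicin they summed to 12600 CPM in Het against 31800 to 37000 CPM. Of the 7, only Dcn was not lower in the KO embryo 3 than in the WT control (67.9 against 66.5 CPM). The 4 macrophage markers found in the table (of 5) summed to 426 and 339 CPM in the Het and KO embryo 3 controls against 79.3 to 137 CPM, led by Lyz2. In treated Het they summed to 440 CPM against 56.8 to 92.3 CPM. In the KO embryo 3 control Lyz2 and Ptprc were above WT (288 against 95.2 and 18.7 against 4.88 CPM). Cd68 was near WT there (9.29 against 8.27 CPM) and Csf1r under it (22.7 against 28.6 CPM). The 5 fat cell markers summed to 13.6 to 42.1 CPM in the controls, where Adipoq and Cidec were at or below 3 counts in all 5. Epithelial and endothelial markers summed to 0.135 to 0.976 and 3.77 to 7.5 CPM in the controls. In bulk RNA, fewer cells of a type and less RNA per cell cannot be told apart.

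In the WT control the 32 genes summed to 6150 CPM. Per kilobase of exon, Scd2, a stearoyl-CoA desaturase, stood highest at 342 CPM per kb, followed by Acly (81.6), Scd1 (73.6), Cyp51 (62.7) and Fads1 (62.3). The lowest were Tm7sf2 (2.24), Acaca (2.55) and Idi1 (3.59 CPM per kb). Scd2 also led in the other 4 controls, at 73.9 in Het and 483, 355 and 58.2 CPM per kb in KO embryos 1, 2 and 3. Reads that match close paralogs such as Scd1 and Scd2 alike may have been misassigned or left uncounted, so their separate levels are less certain than those of the other genes.

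In the Het and KO embryo 3 controls nearly the whole set was low. The 32 genes summed to 1780 CPM in each of these libraries, against 6150, 8160 and 6200 CPM in the WT, KO embryo 1 and KO embryo 2 controls. On the log2 CPM scale (prior count 2) 27 of 32 genes were more than 2-fold lower in the Het than in the WT control, where 10.7% of all genes were, and 26 were in KO embryo 3, where 12.2% were. None of the 32 was more than 2-fold lower in the KO embryo 1 or KO embryo 2 control (2.61% and 2.55% of all genes). The median log2 ratio to WT was -1.49 in Het and -1.38 in KO embryo 3, but 0.43 and 0.02 in KO embryos 1 and 2, whereas the medians of all genes lay between 0 and 0.05. Between KO embryos of the same genotype, 26 of 32 genes were more than 2-fold lower in embryo 3 than in embryo 2 (12.4% of all genes), with a median of -1.43. With doxorubicin, 18 of 32 were more than 2-fold lower in Het than in WT (8.89%), with a median of -1.18, and none in KO embryo 1 or 2 (1.93% and 1.99%). Some neighbouring lists were also lower than WT in the Het and KO embryo 3 controls. Their medians were -1.02 and -1.09 for the 2 Golgi proteases and -0.66 and -0.76 for 12 other lipid synthesis genes. For 8 fatty acid oxidation genes they were -0.68 and -0.71. Those of 6 sterol sensing and efflux genes were 0.51 and 0.09, and those of 3 enzymes of oxidized sterols 1.84 and 1.83. All of these are ratios of single libraries with no replicate check. They depend on the scaling. Plain library totals move the median of all genes to 0.61 and 0.54 in the Het and KO embryo 3 controls. On that scale 13 and 12 of 32 genes were more than 2-fold lower than in WT (3.45% and 4.33% of all genes). There were 13 in KO embryo 3 against embryo 2 (4.76%) and 5 in treated Het (2.76%). Across these ratios 29 to 31 of 32 were lower.

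**Figure D1:**
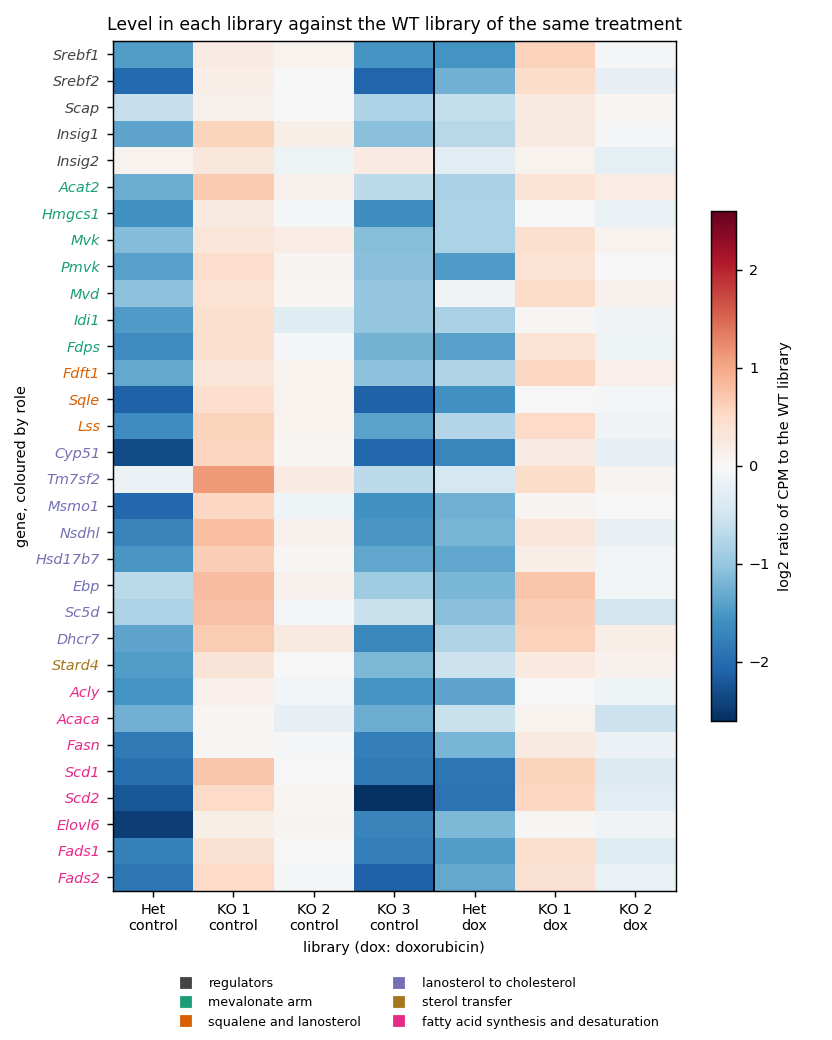
Each cell gives the log2 ratio of CPM in a library (columns) to the WT library of the same treatment for 1 of the 32 genes (rows, coloured by role). The Het and KO embryo 3 controls are blue in 31 of 32 rows each, with Insig2 as the exception, KO embryo 1 is pale red, and KO embryo 2 is near 0.

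Among the regulators, Srebf2, the factor that drives the sterol branch, was at 299 CPM in the WT control, 73.7 in Het and 335, 302 and 70.8 CPM in KO embryos 1, 2 and 3. Srebf1, which drives the fatty acid branch, was at 148, 53.7, 172, 158 and 51.1 CPM in the same order. Both genes were thus low in the same 2 libraries and alike in the other 3. Insig1 followed them (89, 34.2, 133, 99.6 and 42.2 CPM), and Scap was less reduced (115, 76.6, 124, 117 and 65.8 CPM). Insig2 did not fall with the rest, at 44, 46.9, 53.8, 40.2 and 50.9 CPM. It was the single member above WT in the Het control, with a log2 ratio of 0.09, and in KO embryo 3, with 0.21.

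The enzymes showed the same 2 low libraries at every stage of the route. The median log2 ratio to WT of the 7 genes of the mevalonate arm was -1.41 in the Het control and -1.08 in KO embryo 3, that of the 3 genes from farnesyl diphosphate to lanosterol -1.61 and -1.4, and that of the 8 genes from lanosterol to cholesterol -1.44 in both. The 8 fatty acid genes were lowest, with medians of -1.85 and -1.78. Sqle, the squalene epoxidase, was at 175, 40.8, 236, 186 and 40.7 CPM in the WT, Het and KO embryo 1, 2 and 3 controls. Cyp51, the lanosterol demethylase, was at 277, 55.1, 408, 282 and 67.3 CPM. The largest falls were those of Elovl6, a fatty acid elongase, in Het (70.2 CPM in WT, 12.9 in Het, a log2 ratio of -2.44) and of Scd2 in KO embryo 3 (1870 CPM in WT, 318 in KO embryo 3, a log2 ratio of -2.56). The smallest, beside Insig2, were those of Tm7sf2 in Het (-0.16) and of Sc5d in KO embryo 3 (-0.58), both enzymes of late sterol synthesis. The KO embryo 1 control lay above WT in 32 of 32 genes, from 0.02 for Fasn to 1.11 for Tm7sf2, and its treated library in 31 of 32. Ch25h, which makes 25-hydroxycholesterol, a known brake on the pathway, was at 12.9, 68.6, 21.6, 9.54 and 61.5 CPM in the 5 controls, high in the 2 libraries in which the members were low. With doxorubicin it was at 24.8 in WT, 28.3 in Het and 20.4 and 17.6 CPM in KO. The part of Ch25h, of the interferon-stimulated genes and of the macrophage and fibroblast markers in the member levels was not tested.

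**Figure D2:**
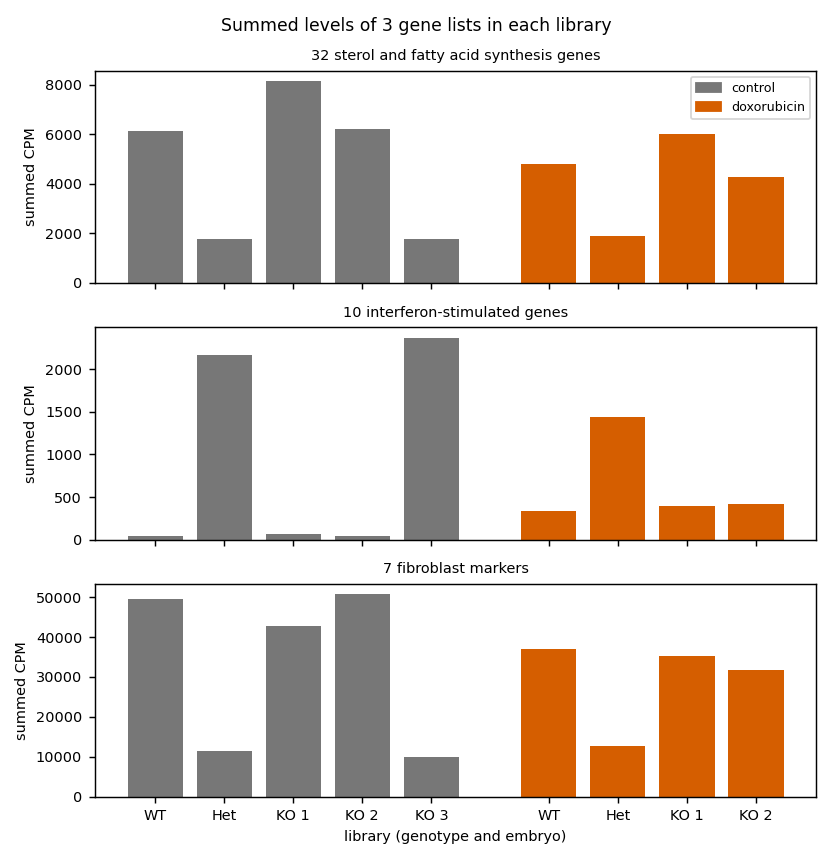
Bars give the summed CPM of the 32 synthesis genes, of 10 interferon-stimulated genes and of 7 fibroblast markers in each of the 9 libraries, grey for control and orange for doxorubicin. The Het and KO embryo 3 controls hold 1780 CPM of the synthesis genes each, under every other control, and 2170 and 2370 CPM of the interferon-stimulated genes.

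Doxorubicin moved the set in both directions. In the comparison of all treated with all control libraries, with genotype as covariate, 8 of 32 genes passed an FDR under 0.01 in edgeR's quasi-likelihood test. Srebf1, Scap, Mvk, Tm7sf2 and Hsd17b7 rose (5 of 32, against 21.9% of all genes), and Insig1, Insig2 and Fdft1 fell (3 of 32, against 18.7%). The share of members called lay under that of all genes in the same fit (40.6%). The median log2 fold change was -0.22 over the members and 0.02 over all genes. The treated and control libraries did not overlap in 1 gene that rose, Scap (24.8% of all genes), and in 3 that fell, Insig1, Insig2 and Fdft1 (21.6%).

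Since 4 embryos gave a library in each treatment, the same comparison was made within embryos. In the 4 pairs of libraries 9 of 32 genes were higher with doxorubicin in 4 of 4 (39.1% of all genes), 17 were lower in 4 of 4 (34.8%), and 6 were mixed. With embryo as a replicate block, in which the KO embryo 3 control has no partner and adds nothing to the estimate, 22 of 32 genes passed in place of 8, where 57% of all genes passed. Of these, 7 rose (30% of all genes) and 15 fell (26.9%). The genes gained on the higher side were Idi1 and Acly, and those on the lower side Srebf2, Fdps, Sqle, Cyp51, Msmo1, Sc5d, Dhcr7, Stard4, Acaca, Fasn, Scd2 and Fads1. With the KO embryo 3 control left out and no block, 19 passed, 7 higher and 12 lower, where 58.9% of all genes passed. Without the Het and KO embryo 3 controls 24 passed, 7 higher and 17 lower, where 64.4% of all genes did. The count thus turned on single libraries. It was 2 or 3 when the WT or Het control or any 1 treated library was left out, with no synthesis gene called higher (26% to 31.3% of all genes called), and 5 without the KO embryo 2 control (35%). With RUVg, which estimates a factor of unwanted variation, 18 passed, 11 higher and 7 lower (61.6% of all genes), and the estimates of Srebf2, Fdps, Cyp51, Fasn, Scd2 and Fads1 turned above 0.

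**Figure D3:**
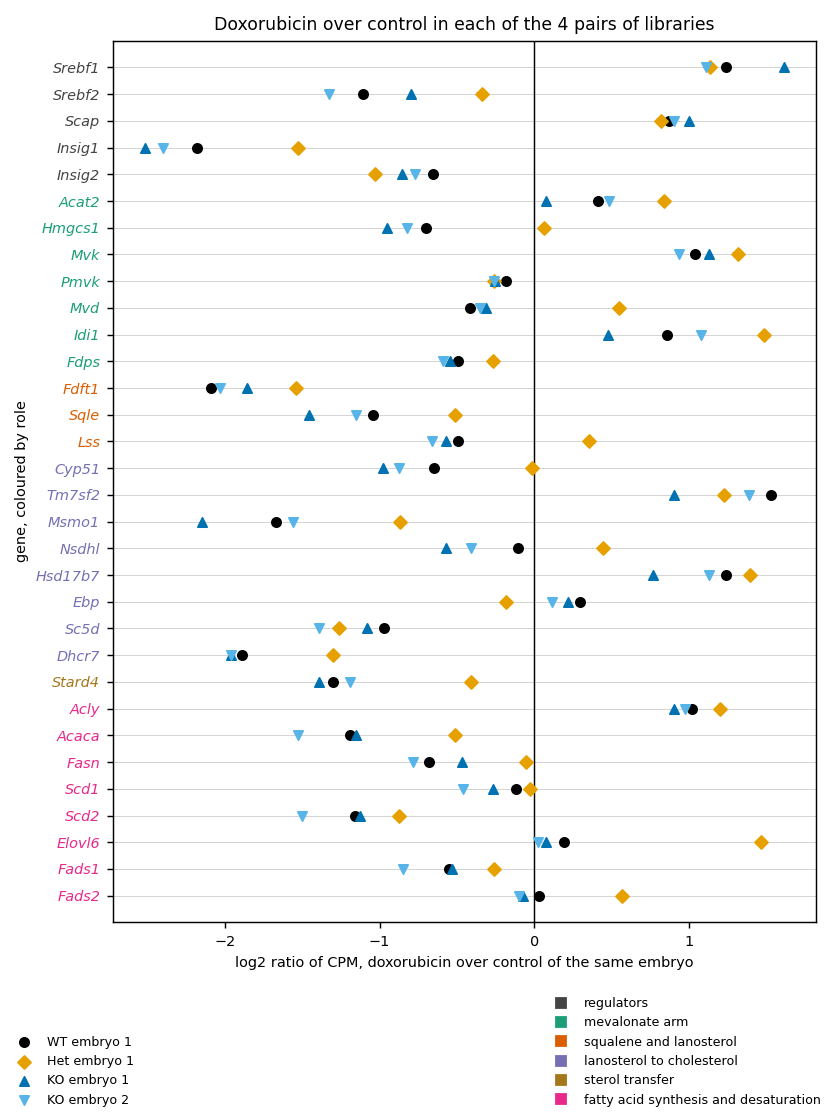
Points give, for each of the 32 genes (rows), the log2 ratio of CPM with doxorubicin to control within the WT, Het and KO embryo 1 and 2 pairs. In all 4 pairs 9 genes, among them Srebf1, Scap and Acly, lie right of 0 and 17, among them Insig1, Fdft1 and Dhcr7, lie left of 0, and the Het points (diamonds) often lie right of the other 3.

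Levels are given in the order WT, Het, KO embryos 1, 2 and 3 for control and WT, Het, KO embryos 1 and 2 for doxorubicin. Of the regulators, Insig1 changed most. It was at 89, 34.2, 133, 99.6 and 42.2 CPM in control and at 19.5, 11.8, 23 and 18.7 CPM with doxorubicin, so that the highest treated library lay under the lowest control. Its log2 fold change was -2.01 ± 0.325 (SE), a 4.03-fold fall (FDR = 0.000934, edgeR quasi-likelihood). Insig2 fell from 44, 46.9, 53.8, 40.2 and 50.9 to 28, 23, 29.7 and 23.6 CPM, with no overlap and a log2 fold change of -0.85 ± 0.157 (FDR = 0.00183). Both brakes on the pathway were thus lower in 4 of 4 pairs. Scap, their partner, rose from 115, 76.6, 124, 117 and 65.8 to 211, 136, 249 and 218 CPM, again with no overlap, by 1.04 ± 0.21 on the log2 scale (FDR = 0.00299).

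The genes of the 2 sterol regulatory element-binding proteins went opposite ways within the pairs. Srebf1 rose from 148, 53.7, 172, 158 and 51.1 to 350, 119, 528 and 340 CPM, a log2 fold change of 1.51 ± 0.351 (FDR = 0.00592). The treated Het library lay inside the range of the controls, yet above its own control. Srebf2 was at 299, 73.7, 335, 302 and 70.8 CPM in control and at 138, 58.4, 193 and 120 CPM with doxorubicin, lower in 4 of 4 pairs. Its log2 fold change was -0.65 ± 0.418 (FDR = 0.216) across all libraries and -0.90 ± 0.16 (FDR = 0.0012) with the replicate block. Counts per gene do not separate the 2 transcript forms of Srebf1.

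In the mevalonate arm, which leads from acetyl-CoA to farnesyl diphosphate, 1 of 7 genes rose (21.9% of all genes) and none fell (18.7%). The one called was Mvk, mevalonate kinase, from 37.7, 17.3, 47, 42.8 and 17.4 to 77.4, 43.4, 103 and 82.1 CPM, by 1.29 ± 0.274 on the log2 scale (FDR = 0.00385). Idi1, the isopentenyl diphosphate isomerase, was close to the threshold at 1.10 ± 0.283 (FDR = 0.0101), and passed it with the replicate block (0.97 ± 0.184, FDR = 0.00164). Its control libraries held 4.47 to 16.8 CPM and its treated libraries 12.7 to 23.5 CPM. Hmgcs1, which makes HMG-CoA at the entry of the arm, was at 264, 88.2, 311, 256 and 85.7 CPM in control and 163, 92.1, 161 and 145 CPM with doxorubicin. It was lower in the WT and both KO pairs and not in Het (log2 ratio 0.06), and it did not pass in either fit (FDR = 0.326, and 0.0105 with the replicate block). Acat2, Pmvk, Mvd and Fdps had log2 fold changes of 0.58, -0.06, 0.02 and -0.30, of which that of Fdps passed with the replicate block (-0.48 ± 0.104, FDR = 0.00362). Within 1 arm, Mvk and Idi1 were thus called higher and Fdps lower with the block.

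Fdft1, squalene synthase, which commits farnesyl diphosphate to sterols, was at 101, 40.2, 126, 107 and 48.5 CPM in control and 23.7, 13.8, 34.7 and 26.2 CPM with doxorubicin. No treated library reached the lowest control, and the log2 fold change was -1.71 ± 0.284, a 3.28-fold fall (FDR = 0.00107). Fdft1 is the only member on chromosome 14 (GRCm38, 63145150 to 63179578), the chromosome of Sall2 (52311172 to 52328762). Its KO against WT log2 fold change over both treatments was 0.10 ± 0.338, and the part of linked sequence was not tested. Sqle, the next enzyme, was lower in 4 of 4 pairs, at 175, 40.8, 236, 186 and 40.7 CPM in control and 85.1, 28.6, 85.3 and 83.8 CPM with the drug. It did not pass across all libraries (-0.83 ± 0.427, FDR = 0.132) and did with the replicate block (-1.05 ± 0.152, FDR = 0.000393). Lss, lanosterol synthase, passed in neither fit (-0.16 and -0.35).

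From lanosterol to cholesterol, 2 of 8 genes rose across all libraries (21.9% of all genes) and none fell (18.7%). Hsd17b7, a sterol 3-keto reductase, rose from 68, 23.8, 106, 69.2 and 26.4 to 161, 63, 180 and 152 CPM, by 1.32 ± 0.336 on the log2 scale (FDR = 0.00949). Tm7sf2, a sterol C14 reductase, rose from 9.86, 8.81, 21.4, 11.4 and 6.15 to 28.7, 20.8, 40.1 and 30.1 CPM, by 1.42 ± 0.323 (FDR = 0.00548). The 2 genes were higher in 4 of 4 pairs each. Dhcr7, which catalyses the last step of one branch, and Msmo1, a methylsterol oxidase, were lower in 4 of 4 pairs. Dhcr7 was at 40.4, 15.6, 64.3, 47.3 and 12.7 CPM in control and at 10.8, 6.25, 16.5 and 12.1 CPM with doxorubicin (-1.57 ± 0.418, FDR = 0.0116). Msmo1 was at 188, 45.5, 275, 175 and 63.2 CPM in control and at 59.3, 24.9, 62 and 59.6 CPM with doxorubicin (-1.39 ± 0.381, FDR = 0.013). Both fell with the replicate block, by 1.80 ± 0.151 (FDR = 2.29e-05) and 1.57 ± 0.188 (FDR = 0.000136). Sc5d and Cyp51 also passed with the block only (-1.18 and -0.63), and Nsdhl and Ebp in neither fit. Stard4, which carries cholesterol between membranes, had a log2 fold change of -0.92 ± 0.299 (FDR = 0.0272) and fell with the replicate block, by 1.08 ± 0.176 (FDR = 0.000728).

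None of the 8 genes of fatty acid synthesis and desaturation passed across all libraries, where 40.6% of all genes did. With the replicate block 5 passed (57% of all genes), 1 higher and 4 lower (30% and 26.9% of all genes). Acly, ATP citrate lyase, which supplies acetyl-CoA to both branches, was at 431, 147, 472, 410 and 148 CPM in control and at 875, 339, 883 and 808 CPM with doxorubicin. Its log2 fold change was 1.21 ± 0.321 (FDR = 0.0112), and 1.03 ± 0.0959 (FDR = 3.70e-05) with the block. Acaca, acetyl-CoA carboxylase, the next step, was lower in 4 of 4 pairs, at 43.6, 18.4, 45.1, 37.6 and 17.7 CPM in control and 19.1, 12.8, 20.3 and 12.9 CPM with the drug (-0.94 ± 0.293, FDR = 0.0233, and -1.10 ± 0.173, FDR = 0.000598, with the block). The genes of these consecutive steps thus took opposite directions in every pair. Scd2 was at 1870, 404, 2640, 1940 and 318 CPM in control and 836, 220, 1210 and 683 CPM with doxorubicin, lower in 4 of 4 pairs, with an FDR of 0.185 across all libraries and 5.83e-05 with the block (-1.17 ± 0.12). Fasn and Fads1 fell with the block by 0.50 ± 0.131 and 0.55 ± 0.114 (FDR = 0.00925 and 0.0028). Scd1, Elovl6 and Fads2 passed in neither fit, and Elovl6 had a log2 ratio of 1.47 in the Het pair against 0.02 to 0.19 in the other 3.

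**Figure D4:**
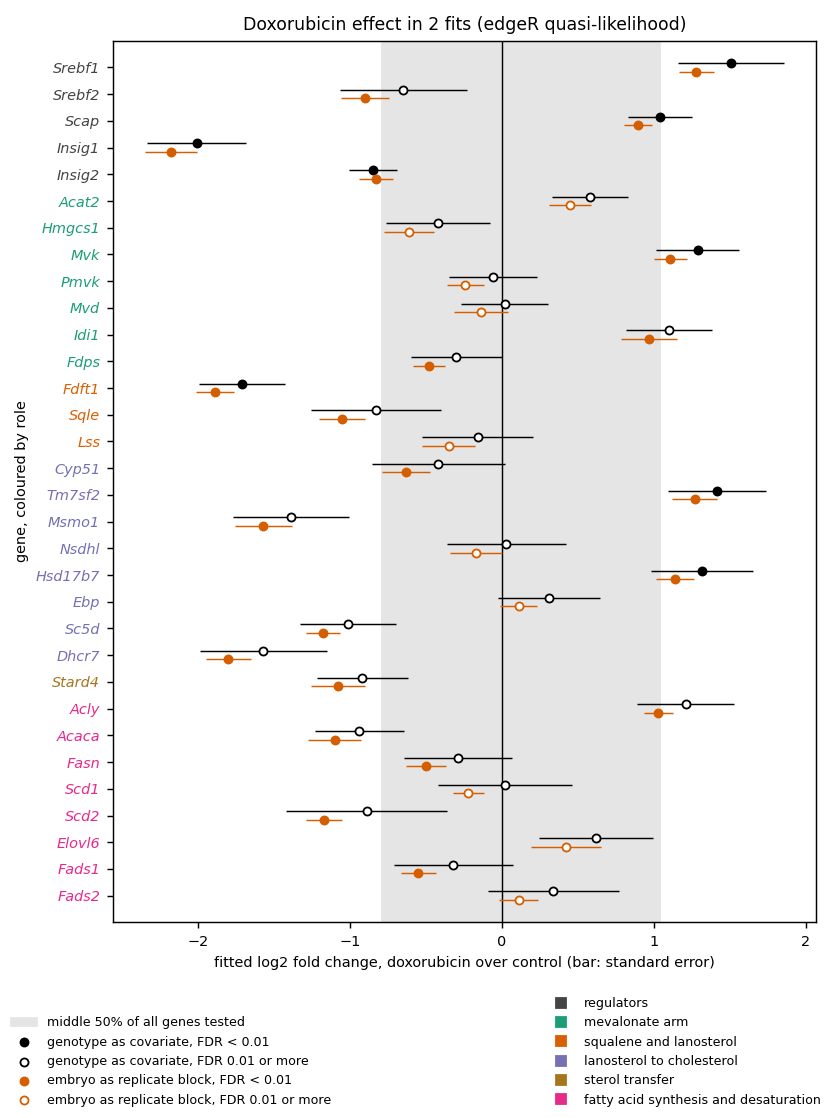
Points give the fitted log2 fold change with doxorubicin of each of the 32 genes, with its standard error, in the fit with genotype as covariate (black) and with embryo as replicate block (orange), filled where the FDR is under 0.01. The grey band spans the middle 50% of all genes tested, from -0.79 to 1.04. Insig1, Fdft1 and Dhcr7 lie farthest left and Srebf1, Tm7sf2 and Hsd17b7 farthest right.

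The pair of libraries from the Het embryo differed from the other 3 pairs in the size of the changes. The median log2 ratio of the 32 genes was -0.04 in Het against -0.49, -0.54 and -0.63 in WT and KO embryos 1 and 2. In Het, 5 genes were more than 2-fold lower and 7 more than 2-fold higher, against 9 or 10 lower and 3 to 5 higher in the other pairs. Srebf2 fell by 0.34 on the log2 scale in Het and by 0.80 to 1.33 in the other 3, and Cyp51 by 0.02 against 0.65 to 0.98. The interferon-stimulated genes went from 2170 to 1440 CPM in this pair and rose in the other 3. With 1 Het embryo this difference has no test, and the Het genotype and the interferon-high culture cannot be told apart.

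The genotype comparisons asked whether loss of Sall2 changed the set. In KO against WT over both treatments none of the 32 genes passed (0% of all genes), with log2 fold changes from -0.29 for Acaca to 0.34 for Tm7sf2 and standard errors from 0.192 to 0.649. The control and treated libraries of an embryo entered this fit as if they were separate. The same holds for the difference of the doxorubicin effect without the block. The standard errors of both fits therefore do not measure the spread between embryos alone. At an unadjusted p under 0.05 there was also none of the 32, against 115 of 16656 genes. DESeq2 called 3 genes in this comparison and no member. In the controls alone none passed (0% of all genes, 10 of 14470 at an unadjusted p under 0.05, and 0 by DESeq2), with log2 fold changes from -0.38 for Fasn to 0.42 for Tm7sf2. With RUVg and edgeR's exact test, 163 genes passed (1.13%) and no member, the smallest FDR of a member being 0.0336. Without the KO embryo 1 or 2 control 47 or 41 genes passed, and no member. Standard errors reached 1.23 for Scd2, and the KO controls held both low and high libraries. Srebf2 stood at 236 ± 144 CPM (SD, n = 3) in the KO controls against 299 in WT, and Scd2 at 1630 ± 1190 against 1870 CPM. With doxorubicin, KO embryo 1 lay above WT in 31 of 32 members, with a median log2 ratio of 0.36. Treated KO embryo 2 lay below WT in 22 of 32, with a median of -0.09. In the fit of these treated libraries none of 32 passed either, against 0.197% of all genes. Log2 fold changes lay between -0.21 for Acaca and 0.40 for Dhcr7, with standard errors from 0.197 to 0.286. The difference of the doxorubicin effect between KO and WT was not called for any member (0% of all genes, 41 of 15905 at an unadjusted p under 0.05, and 0 by DESeq2), with estimates from -0.21 to 0.53. These were above 0 in 30 of 32 members, with a median of 0.25. With the replicate block it was called for no member and 8 genes, and the estimates were below 0 in 25 of 32, with a median of -0.14. Without the KO embryo 3 control they were below 0 in 26 of 32 (median -0.15), so that the direction rested on that library. With 1 WT embryo, differences of the size of these standard errors could not be detected. The WT embryo was female and KO embryos 1 and 3 male, and Nsdhl and Ebp lie on the X chromosome. The part of embryo sex in these values was not tested.

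In Het against WT over both treatments 32 of 32 genes had a lower estimate, with a median log2 fold change of -1.31 against 0.10 over all genes. None passed an FDR under 0.01 (0% of all genes in edgeR's quasi-likelihood test, and 0 members and 176 genes by DESeq2). At an unadjusted p under 0.05, 22 of 32 were lower, against 13.5% of all genes. The estimates ran from -2.08 ± 0.808 for Scd2 (FDR = 0.2) to -0.10 ± 0.228 for Insig2 (FDR = 0.789). When the KO embryo 3 control, which shared the low levels, was left out, 22 of 32 genes passed and all were lower (11.6% of all genes lower), with FDR values of 0.000322 for Acly, 0.000417 for Sqle and 0.000799 for Cyp51 and Fdps. Het and WT are 1 embryo each in this fit, whose control and treated libraries enter as if they were separate, so these values compare 2 cultures and not 2 genotypes. Since the low levels also occurred in a KO culture and not in the other 2, the Het genotype cannot be told apart from the culture state that the interferon-stimulated genes marked.

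Genes next to the set in lipid metabolism were read from lists, with the same fits. Of the 2 proteases that release the sterol regulatory element-binding proteins, Mbtps2 fell with doxorubicin (-1.43 ± 0.217, FDR = 0.000682), from 45.2, 25.4, 46.9, 51.8 and 26.1 to 17.7, 9.93, 14.7 and 14.9 CPM, and Mbtps1 did not pass (0.01). In the list of liver X receptors and their targets, which respond to oxysterols and export sterol, 3 of 6 genes rose and none fell. Abca1, the cholesterol efflux pump, rose from 38.3, 57.4, 44.9, 36.7 and 28.3 to 140, 102, 139 and 109 CPM (1.58 ± 0.218, FDR = 0.000406). Abcg1 rose from 7.82, 22.3, 13.5, 6.01 and 15.9 to 48.2, 37.7, 54.4 and 52.9 CPM (1.97 ± 0.352, FDR = 0.00159), and Lpcat3 by 1.53 ± 0.34 (FDR = 0.00482). Abca1 and Abcg1 did not overlap between treatments. Of 12 other genes of lipid and isoprenoid synthesis, 2 rose (Acss2 by 1.27 and Acacb by 1.28) and 2 fell, Dhdds, the dolichol synthase subunit (-1.93 ± 0.307, FDR = 0.000868), and Pdss1, of coenzyme Q synthesis (-1.28 ± 0.219, FDR = 0.00126). These counts stand beside the 21.9% and 18.7% of all genes that rose and fell in the same fit. With the replicate block 2 of the 12 rose and 5 fell, beside 30% and 26.9% of all genes.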

How the data were processed

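Libraries for Illumina sequencing were prepared from rRNA-depleted RNA with a stranded TruSeq kit. The deposited values are raw counts per gene: the authors merged 4 FASTQ files per library, aligned them to mm10 with HISAT2 (2.1.0 in the submitters' processing notes) and counted reads with HTSeq in union mode. The strand setting is not given in the sources used here, so reads over overlapping genes on opposite strands may be misassigned or left uncounted. Of 10 count columns, matched to groups by name, 9 were used, since 2 held the same values.

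Counts were tested in R 4.3.3 with edgeR 4.0.16 (TMM factors, filterByExpr over the 6 groups, quasi-likelihood, two-sided, Benjamini-Hochberg adjustment over all genes tested, FDR under 0.01). Treatment and genotype entered as additive terms over all 9 libraries. KO and WT were also fitted within each treatment, and with an interaction. DESeq2 1.42.0 and the study's RUVg step (1 factor, control genes all but the 5000 with the smallest p, rewritten here) were alternatives. Log2 ratios of single libraries used a prior count of 2. The scripts were tested on simulated data. P-values measure the spread between these cultures only, and counting error depends on depth, which lay between 15560728 and 24122414 counts.

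The labels give same-numbered KO cultures in both treatments, and the differences between KO embryos 1 and 2 correlated between treatments (Pearson's r = 0.342 across 16656 genes, which are not independent), so embryo was used as a replicate block. Every one of the 32 genes is named. The genes and lists were chosen with earlier results of these data known. Promoters came from RefSeq GRCm38.p6, and gene positions and exon lengths from GENCODE.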

Additional observations from a re-analysis of the deposited data

Results flagged for a closer look

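Fads2, the delta-6 fatty acid desaturase, had a log2 ratio of doxorubicin to control of 0.03 in the WT pair and of -0.07 and -0.09 in the pairs of KO embryos 1 and 2, so that the WT pair and the KO pairs had opposite signs, all 3 near 0. The Het pair had a larger ratio, 0.57. The difference was not called in the fit of the difference between KO and WT, where no synthesis gene was, with or without the replicate block.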

How the results depend on the processing

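With doxorubicin, the 8 synthesis genes called (5 higher, 3 lower) became 13 with DESeq2 (6 lower), 15 at an FDR under 0.05 (8 lower) and 1 at an FDR under 0.001 (0 higher, 1 lower), where 49.4%, 55.6% and 20.6% of all genes were called. When every gene with a count was kept, 5 were lower. With embryo as a replicate block 22 were called (15 lower, 57% of all genes called). KO libraries alone gave 0 (0 higher, 0 lower), WT and KO libraries 4 (1 higher) and RUVg 18 (11 higher, 7 lower), beside 12.8%, 31.9% and 61.6% of all genes. In alternatives chosen after seeing the data, 24 were called without the Het and KO embryo 3 controls (17 lower), and 28 with the replicate block over WT and KO embryos 1 and 2 only (8 higher, 20 lower), beside 64.4% and 74.9% of all genes. Leaving out 1 library gave 2 to 19 calls, 0 to 7 higher and 2 to 12 lower, beside 26% to 58.9% of all genes. In Het against WT the 0 calls became 0 to 22 when 1 library was left out, beside 0% to 19.7% of all genes. Without the Het and KO embryo 3 controls they became 16, beside 20.5% of all genes. In that fit the treated library was the only Het library. On library totals, also added later, 13 and 12 genes were more than 2-fold lower in the Het and KO embryo 3 controls than in WT. There were 13 in KO embryo 3 against embryo 2 and 5 in treated Het. Of all genes 3.45%, 4.33%, 4.76% and 2.76% were, in the same order. The causes were not tested.

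Estimates of the doxorubicin effect that changed sign under RUVg were those of Srebf2 (0.03), Hmgcs1 (0.10), Pmvk (0.33), Fdps (0.12), Lss (0.38), Cyp51 (0.32), Fasn (0.25), Scd2 (0.02) and Fads1 (0.29). Pmvk was also 0.06 on library totals, 0.10 in KO libraries only and 0.01 in WT and KO libraries. Mvd was 0 with every gene kept and in KO libraries only, -0.13 in WT and KO libraries, -0.14 with the replicate block, -0.40 without the Het and KO embryo 3 controls and -0.36 with the block over WT and KO embryos 1 and 2. From KO libraries only onwards, in that order, Nsdhl was -0.06, -0.08, -0.17, -0.42 and -0.37. Scd1 was -0.22, -0.31 and -0.28 in the last 3, and Fads2 -0.08 and -0.05 in the last 2. None of these genes passed in the fit of all libraries. Of the estimates that changed sign, those of Mvd, Nsdhl and Scd1 passed with the block over WT and KO embryos 1 and 2 (FDR = 0.00143, 0.00139 and 0.00233, edgeR quasi-likelihood), and Nsdhl was called higher under RUVg. In Het against WT, library totals gave 0.44 for Insig2 and 0.23 for Tm7sf2. Leaving out 1 library gave -0.24 to 0.10 for Pmvk, -0.14 to 0.17 for Mvd, -0.35 to 0.08 for Lss, -0.18 to 0.32 for Nsdhl and -0.22 to 0.32 for Scd1 with doxorubicin, and -0.22 to 0.03 for Insig2 in Het against WT.

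There is no value for KO against WT with doxorubicin without a WT or KO library, for KO against WT in control without the WT library, or for the interaction without a WT library, and no blocked fit exists for genotype, which is fixed within an embryo. The replicate block changed no call of a synthesis gene in the interaction. The estimates for WT and Het rest on 1 embryo each.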

Other observations

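Of 3 oxysterol enzymes, 1 rose and 1 fell with doxorubicin, in a fit where 21.9% of all genes rose and 18.7% fell. Cyp27a1, the sterol 27-hydroxylase, went from 0.548, 2.21, 0.719, 0.842 and 2.2 CPM in the WT, Het and KO embryo 1, 2 and 3 controls to 61.2, 120, 62.4 and 76.4 CPM in the treated WT, Het and KO embryo 1 and 2 libraries. Its log2 fold change was 5.95 ± 0.365 (FDR = 1.08e-05, edgeR quasi-likelihood), with no overlap between treatments. Cyp7b1, an oxysterol hydroxylase, was at 6.02 to 11.2 CPM in control and at 1.02 to 1.24 CPM with the drug (-2.82 ± 0.27, FDR = 6.82e-05). Ch25h, the third of the list, passed neither without the replicate block (-0.48 ± 0.546, FDR = 0.482) nor with it (0.11, FDR = 0.798). Of 8 genes of fatty acid oxidation, 3 rose and none fell, namely Acadm by 1.29, Acadvl by 1.19 and Hadhb by 1.12 on the log2 scale, beside the same shares of all genes. Cpt1a, which admits fatty acids to the mitochondrion, was called with the replicate block only (-0.55, FDR = 0.00235), where 3 of the 8 rose and 1 fell and 30% and 26.9% of all genes did.

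None of 3 targets of p53, which DNA damage activates, passed in the fit of all libraries. Cdkn1a was at 392 to 555 CPM in control and 271 to 337 CPM with doxorubicin, with no overlap (-0.67 ± 0.187, FDR = 0.0145), and was called lower with the replicate block (FDR = 0.00058). None of the 7 fibroblast markers and none of the 10 interferon-stimulated genes passed without the block. With it Thy1 rose and Pdgfra fell among the fibroblast markers, and Irf7 and Bst2 rose among the interferon-stimulated genes. Of 4 macrophage markers Cd68 rose and Csf1r fell in both fits. Of the other cell type markers tested, none of 3 endothelial genes passed without the block. Adipoq of 4 fat cell genes and Epcam of 2 epithelial genes were called higher. They were at 0 to 0.0514 and 0 to 0.36 CPM in control, and at 0.138 to 0.775 and 2.91 to 3.63 CPM with doxorubicin. Adipoq, Cidec, Epcam and Cdh1 passed the filter on low counts only through treated libraries, so only a rise could be called. Plin1 and Krt8, of the same lists, were too low to be tested. With the block 3 fat cell, 2 epithelial and 2 endothelial markers rose, among the last Pecam1 (4.17, FDR = 0.000297) and Kdr (0.93, FDR = 0.00305).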
